A study of Rattus norvegicus with 30 samples.

Results

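The genes described here encode the T cell receptor complex, its coreceptors and the receptors that tune its signal: Cd3d, Cd3e, Cd3g, Cd4, Cd8a, Cd2, Cd28, Icos, Ctla4 and Foxp3. They were found on the array by the RefSeq transcript named for each probe, and the 10 genes are among 26913 on the array. A T cell recognises antigen through a receptor that has no signalling tail of its own, so the CD3 chains carry the signal inward, while CD4 or CD8 holds the antigen-presenting molecule. CD28, which binds CD80 and CD86, and ICOS, which is induced after activation and binds its own ligand, add a second signal, and CTLA-4 competes with CD28 for the same ligands. FOXP3 is the transcription factor that defines regulatory T cells, which also carry much CTLA-4. In rats, unlike mice, monocytes and macrophages also carry CD4, and natural killer (NK) cells carry CD8 alpha.

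The lungs came from adult male Wistar Unilever outbred rats (strain HsdCpb:WU), 8 weeks old on arrival. For 5 consecutive days they breathed, nose only, either air (0 mg/m3), copper oxide nanoparticles at 3.3 mg/m3 (low dose) or at 13.2 mg/m3 (high dose), each given as a 6-hour equivalent dose. Lungs were taken 1 day (day 6) or 22 days (day 28) after the last exposure, with 5 rats in each of the 6 groups, for which the labels give no other difference than dose and day. RNA of each rat (Cy5) was hybridised on its own array against a reference RNA (Cy3) that the labels name once as mouse and once as a mix of rat cell lines, and the labels give the nanoparticle as the treatment also at dose 0. Values are log2 ratios of Cy5 over Cy3, so a value says how a gene stood against that reference, and only differences between groups for the same gene are read.

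Of the 10 genes, 9 passed the filter on dim probes, as did 18420 genes on the array. Cd3d, Cd3e, Cd3g and Cd8a were well above background in all 30 rats, Icos in 27, Cd4 in 26, Cd2 in 23 and Foxp3 in 18. The Ctla4 probe used was well above background in 6 rats, of which 3 were high dose and 2 low dose rats of day 6. None was an air rat, so it passed the filter of at least 5 arrays only through the groups in which it was brighter. Cd28 was not well above background in any rat and was not tested. The median Cy5 intensity of the arrays was 216 to 432, and genes of lung epithelium and endothelium averaged log2 ratios of 5.19 to 5.97 in all rats. One library stood apart: heart muscle genes averaged 4.82 in air rat 4 of day 6, against a median of -0.53 over the 5 air rats of that day, and its B cell genes were the highest of that group (-0.25, with the others between -1.07 and -0.86). Smaller heart muscle signals were seen in low dose rat 49 of day 6 (2.54), high dose rat 83 of day 28 (1.64) and low dose rat 54 of day 28 (1.58).

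The promoter windows of the 3 CD3 genes and of Icos are shown because the CD3 genes lie close together on one chromosome and are compared rat by rat, and because Icos had the largest log2 fold change of the 9 genes at the high dose. Each window runs from 250 bases before to 50 bases after the RefSeq transcription start (assembly GRCr8) and is written on the gene's own strand. Capitals mark the matches to the motifs searched, each on both strands. Letters bound by ETS factors were taken as AGGAAG. For RUNX factors the letters searched were TGTGGT. For the TCF and LEF factors the search used ATCAAAG. AP-1 was searched for by the letters TGANTCA, where N is any base. GATA factors were given the letters AGATAA. The TATA box was searched for by the letters TATAAA.
Cd3d (chr8:54185269-54185568, plus strand): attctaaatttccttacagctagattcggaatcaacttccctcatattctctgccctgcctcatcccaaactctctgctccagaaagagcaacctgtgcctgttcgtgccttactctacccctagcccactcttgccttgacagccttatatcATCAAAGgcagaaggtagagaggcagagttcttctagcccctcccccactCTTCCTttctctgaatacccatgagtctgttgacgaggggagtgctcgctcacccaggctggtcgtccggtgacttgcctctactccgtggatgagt
Cd3g (chr8:54183869-54184168, minus strand): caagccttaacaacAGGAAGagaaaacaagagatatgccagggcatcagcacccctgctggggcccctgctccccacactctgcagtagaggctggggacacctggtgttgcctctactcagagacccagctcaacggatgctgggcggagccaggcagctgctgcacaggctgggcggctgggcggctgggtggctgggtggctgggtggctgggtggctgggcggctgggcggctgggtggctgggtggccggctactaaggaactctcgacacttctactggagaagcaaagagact
Cd3e (chr8:54211721-54212020, minus strand): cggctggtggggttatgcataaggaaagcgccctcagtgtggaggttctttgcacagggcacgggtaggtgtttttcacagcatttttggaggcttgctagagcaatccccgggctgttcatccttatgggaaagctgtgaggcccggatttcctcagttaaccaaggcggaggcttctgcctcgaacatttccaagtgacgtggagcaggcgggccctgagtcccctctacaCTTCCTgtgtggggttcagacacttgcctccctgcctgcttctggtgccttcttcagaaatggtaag
Icos (chr9:69877549-69877848, plus strand): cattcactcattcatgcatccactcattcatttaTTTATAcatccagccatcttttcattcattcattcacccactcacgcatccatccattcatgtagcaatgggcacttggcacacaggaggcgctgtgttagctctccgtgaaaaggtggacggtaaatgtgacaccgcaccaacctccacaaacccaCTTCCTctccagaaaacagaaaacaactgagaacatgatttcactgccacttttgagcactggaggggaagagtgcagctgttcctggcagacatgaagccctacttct

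Windows of Cd3d and Cd3g lie next to each other and point away from each other. Each of the 4 windows holds the ETS letters, at -47 in Cd3d, -236 in Cd3g, -17 in Cd3e and -59 in Icos, counted to the first base of the match from the start site. Among the 9 members with a window (Cd4 had none in the table), 5 held these letters, against 34.5% of 33469 promoters of the same length. The TCF/LEF letters were in 2 of the 9, Cd3d and Ctla4, against 3.63% of all promoters, and the Cd3d match lies at -97. The TATA letters were in 3 (Ctla4, Foxp3 and Icos, against 14.2%), the RUNX letters in 2 (Cd2 and Cd28, against 17.3%), the GATA letters in 1 (Cd28, against 11.6%) and the AP-1 letters in 0, against 7.33%. A match only says that these letters are in the window.

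On day 6 the lungs of high dose rats contained more RNA of the CD3 chains, Cd4, Cd8a, Cd2, Icos and Foxp3 than lungs of air rats. Of the 9 genes tested, 8 were called higher (limma, Benjamini-Hochberg adjusted p under 0.05) and Ctla4 was not called. In the same comparison 36.5% of all genes tested were called in either direction and 21.1% were called higher. The median log2 fold change of the 9 genes was 0.71, and that of all genes was 0.01. For 4 genes (Cd3e, Cd4, Cd2 and Icos) every high dose rat lay above every air rat, a pattern held by 16.8% of all genes. In whole lung, more cells of a type and more RNA per cell cannot be told apart. All these rats are shown in the plot of log2 ratios by rat.

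**Figure D1:**
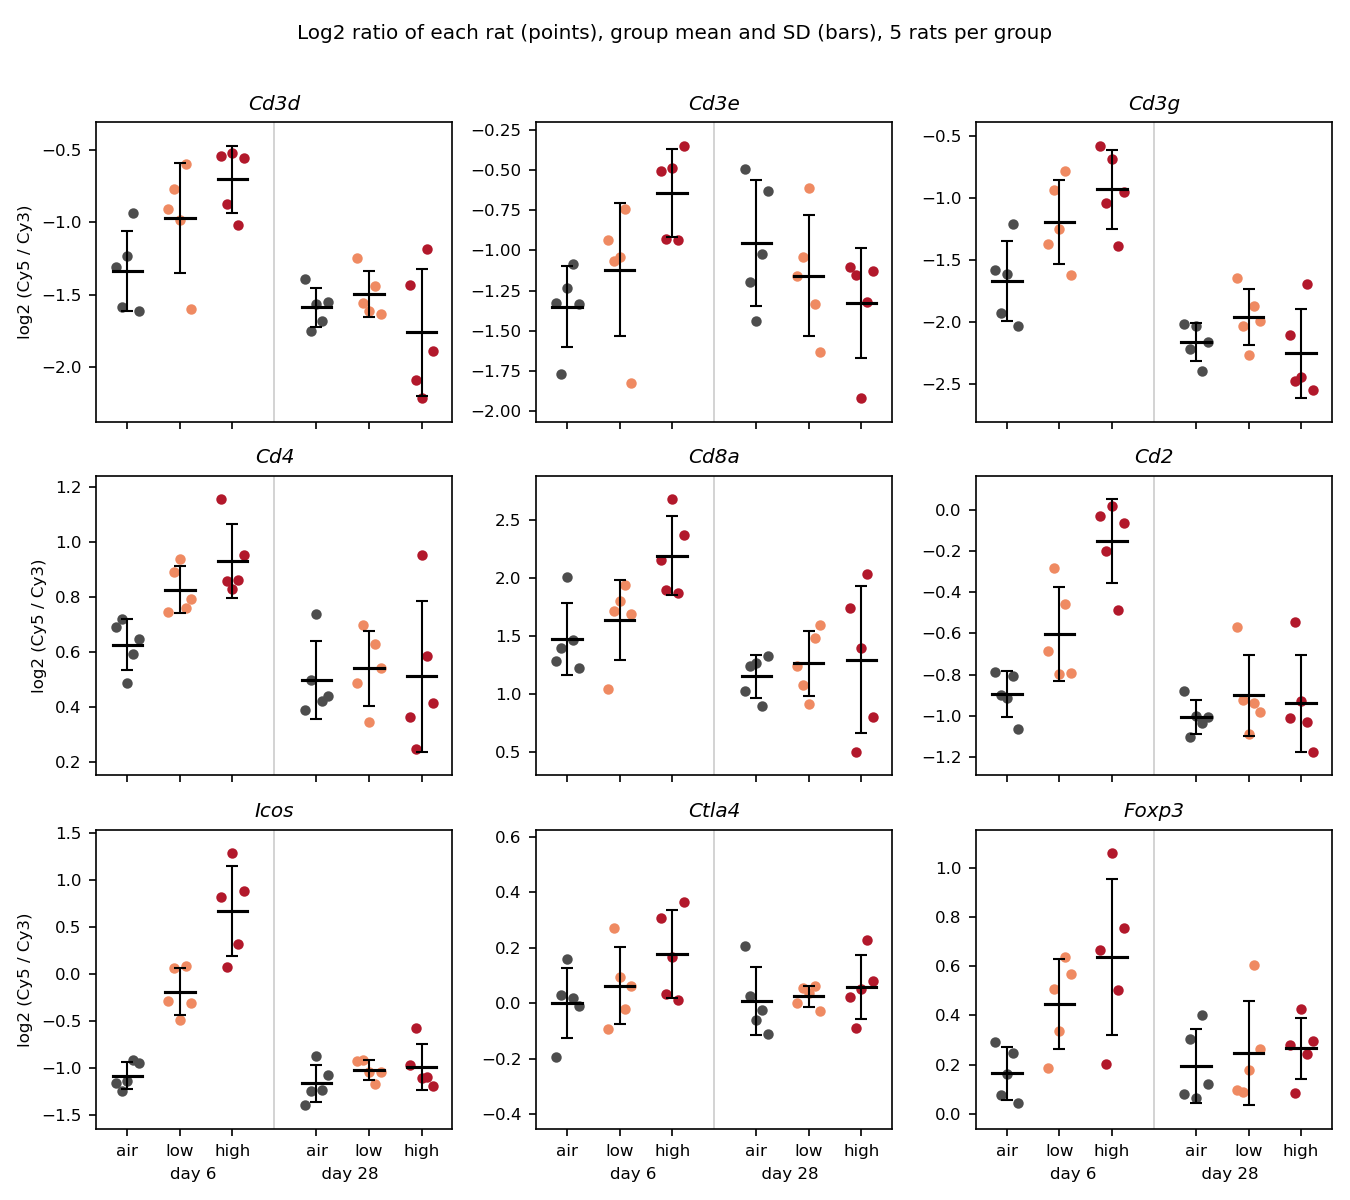
Log2 ratio of Cy5 over Cy3 (vertical axes, each panel with its own range) for the 9 genes that passed the filter, with air, low dose and high dose on day 6 at left and on day 28 at right. Points are rats, the long horizontal bar is the mean and the whiskers are the SD (n = 5 rats per group). Icos in high dose rats of day 6 (0.08 to 1.29) lies clear of the air rats of that day (-1.24 to -0.91), and on day 28 the groups overlap in every panel.

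The CD3 chains are the invariant parts of the T cell receptor and mark T cells as a whole. Cd3e was at -0.94, -0.93, -0.50, -0.49 and -0.35 in high dose rats of day 6, against -1.77, -1.33, -1.33, -1.24 and -1.09 in air rats. The groups did not overlap, and Cd3e was 1.63-fold higher (log2 fold change 0.71 ± 0.21 SE, adjusted p = 0.00825).
Cd3d was at -1.02, -0.87, -0.55, -0.54 and -0.52 in high dose rats, against -1.61, -1.58, -1.31, -1.23 and -0.94 in air rats. Only the highest air rat, rat 4, reached into the range of the high dose rats. Cd3d was 1.55-fold higher (0.63 ± 0.18, adjusted p = 0.00564). Cd3g was at -1.39, -1.04, -0.95, -0.68 and -0.58 in high dose rats, against -2.03, -1.92, -1.61, -1.58 and -1.21 in air rats. Here too rat 4 was the highest air rat and the one that overlapped. Cd3g was 1.67-fold higher (0.74 ± 0.18, adjusted p = 0.00161). Without air rat 4 the log2 fold changes were 0.73 for Cd3d, 0.77 for Cd3e and 0.86 for Cd3g, and 8 of the 9 genes were again called higher. With arrays centred on their median in place of loess, Cd3d (0.53, adjusted p = 0.107) and Cd3g (0.63, adjusted p = 0.051) were not called.

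Both coreceptors were higher. Cd8a, which pairs with CD8 beta on cytotoxic T cells, was at 1.86, 1.90, 2.15, 2.36 and 2.67 in high dose rats, against 1.22, 1.28, 1.39, 1.46 and 2.00 in air rats. Air rat 3 alone lay inside the range of the high dose rats. Cd8a was 1.64-fold higher (0.72 ± 0.23, adjusted p = 0.0132), and Cd8b, its partner chain, was 1.43-fold higher (0.51 ± 0.15, adjusted p = 0.007). Without high dose rat 77, the rat with the highest Cd8a, the adjusted p of Cd8a was 0.0513. Genes of NK and cytotoxic cells averaged 1.24 to 1.84 in high dose rats and 0.75 to 1.41 in air rats, and 4 of 14 were called higher and 0 lower, with a median log2 fold change of 0.17. Over all genes 21.1% were called higher. The part of NK cells in the Cd8a value was not tested.

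Cd4, the coreceptor of helper T cells, was at 0.83, 0.86, 0.86, 0.95 and 1.15 in high dose rats, against 0.49, 0.59, 0.65, 0.69 and 0.72 in air rats. The groups did not overlap, and Cd4 was 1.23-fold higher (0.30 ± 0.10, adjusted p = 0.0181). Its call was lost without high dose rat 75 (0.25, adjusted p = 0.064) or air rat 3 (0.27, adjusted p = 0.0526). Macrophage and monocyte genes averaged 1.62 to 2.67 in high dose rats and 0.82 to 1.01 in air rats, and 18 of 23 were called higher and 0 lower, with a median log2 fold change of 1.1. The part of these cells in the Cd4 value was not tested.

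Cd2, an adhesion and costimulatory receptor of T and NK cells, was at -0.49, -0.20, -0.06, -0.03 and 0.02 in high dose rats, against -1.07, -0.91, -0.90, -0.81 and -0.79 in air rats. The groups did not overlap, and the group means were -0.15 ± 0.20 in high dose and -0.89 ± 0.11 in air rats (SD, n = 5 each). Cd2 was 1.67-fold higher (0.74 ± 0.12, adjusted p = 1.03e-05). Cd48, the rodent ligand of CD2, had a log2 fold change of 0.10 ± 0.23 (adjusted p = 0.781).

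Icos had the largest log2 fold change of the 9 genes. It was at 0.08, 0.32, 0.82, 0.88 and 1.29 in high dose rats, against -1.24, -1.15, -1.13, -0.94 and -0.91 in air rats. Means were 0.68 ± 0.48 in high dose and -1.08 ± 0.14 in air rats (SD, n = 5 each), and the groups did not overlap. Icos was 3.37-fold higher (1.75 ± 0.16, adjusted p = 1.34e-09). Taken rat by rat as Icos minus Cd3e, the high dose rats ran from 1.01 to 1.77 and the air rats from 0.11 to 0.52, so Icos was shifted by 1.05 more than Cd3e, a description for which no test was run. The same shift from air was 0.55 in high dose and 0.35 in low dose rats of day 28, where neither gene was called against air.

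Cd28 gave values near 0 in every group, with a log2 fold change of 0.06 at the high dose on day 6, and its probe was not well above background in any rat. Ctla4 was at 0.01, 0.03, 0.17, 0.31 and 0.37 in high dose rats, against -0.19, -0.01, 0.02, 0.03 and 0.16 in air rats. These ranges overlapped, and the log2 fold change of 0.18 ± 0.08 was not called (adjusted p = 0.0949). No air rat had this probe well above background, so its fold is given as a bound. In normalized Cy5 the high dose mean was 6.60 (log2), against 6.29 in air rats, and the bound was 1.24-fold. This bound carries no sampling error, and 3 of 5 high dose rats had the probe well above background. The fit gave 1.13-fold, with a 95% confidence interval of 0.01 to 0.34 on the log2 scale. The bound sets the mean of the high dose rats against the dimmest signal that counted as well above background on each air array, or the probe's own signal where that was higher. At 0.305 on the log2 scale it is close to the plain difference of the 2 means, so the background limit changed it little. It lies above the fitted fold and is no firm limit on the true fold in either direction. It is also open to dye bias because dyes were not swapped. A second Ctla4 probe, below the filter with 1 of 30 arrays well above background, had all 5 high dose rats (0.09 to 0.38) above all 5 air rats (-0.24 to 0.07). Its log2 fold change was 0.37 ± 0.07 (adjusted p = 4.81e-05 when it was added to the fit, a step chosen after seeing the data), so the probes of Ctla4 differ in the call.

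Foxp3 was at 0.20, 0.50, 0.67, 0.76 and 1.06 in high dose rats, against 0.04, 0.08, 0.16, 0.25 and 0.29 in air rats. High dose rat 76, the lowest of its group, lay inside the range of the air rats. Foxp3 was 1.39-fold higher (0.47 ± 0.12, adjusted p = 0.00285), with all 5 high dose and 1 of 5 air rats well above background. Other regulatory T cell genes gave 3 of 8 higher and 1 lower, with a median log2 fold change of 0.14. Over all genes 21.1% were called higher and 15.4% lower. The 3 higher genes were Ebi3, a subunit of interleukins 27 and 35, which antigen-presenting cells also make (2.15), Tgfb1, a cytokine of many cells (0.72), and Il2ra, the interleukin 2 receptor alpha chain that regulatory and activated T cells carry (0.55, adjusted p = 5.03e-06). The lower gene is not named here.

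At the low dose on day 6 only Icos was called among the 9 genes, in a comparison in which 6.72% of all genes were called in either direction and 4.97% were called higher. Icos was at -0.48, -0.31, -0.28, 0.06 and 0.08 in low dose rats, all above the air rats given above. It was 1.85-fold higher (0.89 ± 0.16, adjusted p = 0.00045). Cd4 in low dose rats (0.74 to 0.94) also lay above all air rats (0.49 to 0.72), a pattern held by 5.37% of all genes, but its log2 fold change of 0.20 ± 0.10 was not called (adjusted p = 0.264). For the other 7 genes the low dose log2 fold changes were 0.06 for Ctla4, 0.16 for Cd8a, 0.23 for Cd3e, 0.28 for Foxp3, 0.29 for Cd2, 0.36 for Cd3d and 0.48 for Cd3g, with adjusted p of 0.106 to 0.743. Low dose rat 51 was the lowest of its group in all 3 CD3 chains (Cd3d -1.60, Cd3e -1.82, Cd3g -1.62), and its Cd4 (0.79) and Foxp3 (0.57) were not. Without air rat 4, Cd3g was called as well (0.60, adjusted p = 0.0413). These low dose and high dose comparisons share their air rats.

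Set directly against the low dose, the high dose on day 6 had higher Icos (0.86 ± 0.16, 1.82-fold, adjusted p = 0.000485) and higher Cd2 (0.45 ± 0.12, 1.37-fold, adjusted p = 0.00979). The other 7 genes were not called. Of all genes 11.9% were called in either direction and 8.01% were called higher. Cd2 was at -0.80, -0.79, -0.68, -0.46 and -0.28 in low dose rats, so that only the lowest high dose rat, rat 78, reached into their range. For Icos the lowest high dose rat (rat 76) and the highest low dose rat (rat 50) were both at 0.08. The intervals left room for sizeable dose differences in the CD3 chains: the 95% confidence interval of Cd3d ran from -0.09 to 0.63 and that of Cd3e from 0.05 to 0.91 on the log2 scale. Cd8a had a log2 fold change of 0.56 ± 0.23 (adjusted p = 0.114), which was called with the slide as a block (0.64, adjusted p = 0.0107). Each of the 4 slides held 1 or 2 rats of each of the 3 groups of day 6. On every slide the high dose lay above air for all 9 genes, from 1.13 to 2.42 for Icos and from 0.40 to 0.80 for Cd3d. The difference was as small as 0.0082 for Ctla4 (slide 4) and 0.03 for Foxp3 (slide 1). Ctla4 adds no support here, because it passed the filter only through exposed rats.

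**Figure D2:**
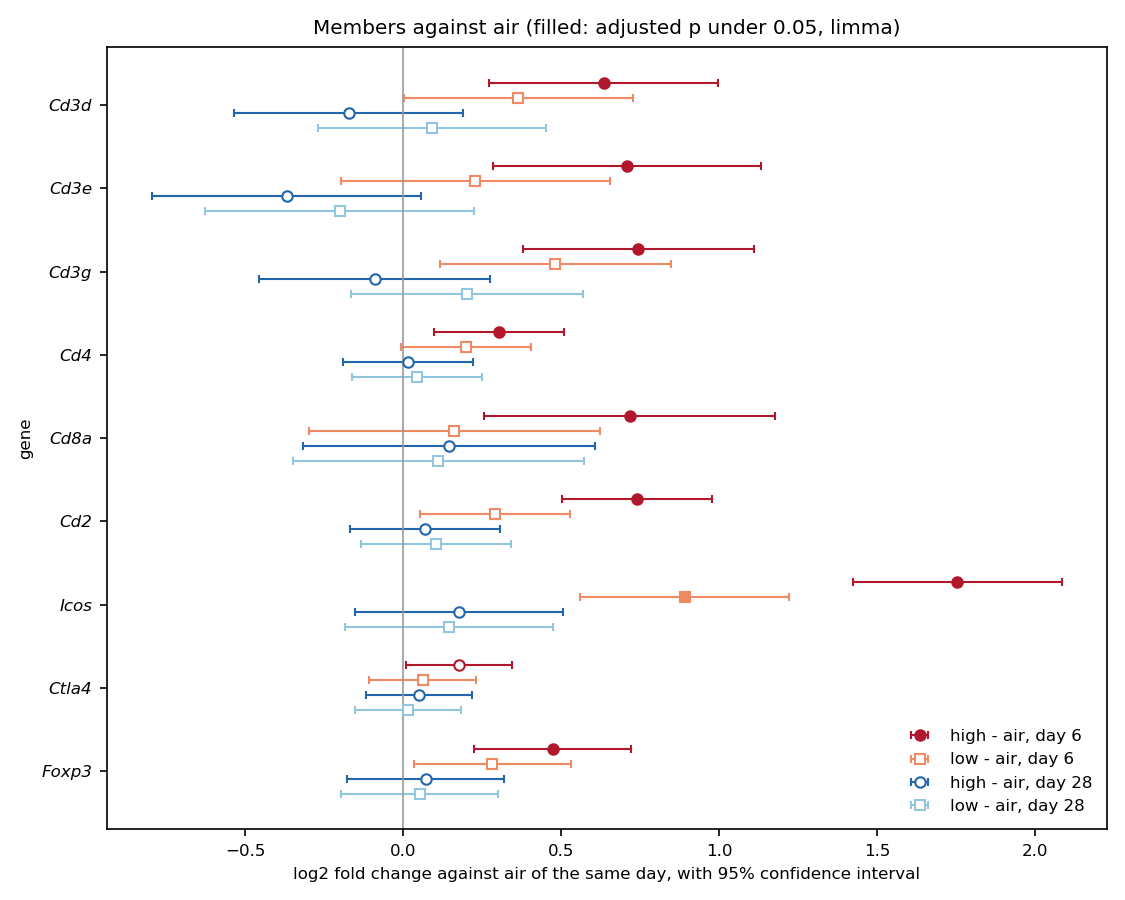
Log2 fold change against air of the same day (horizontal axis) with its 95% confidence interval for the 9 genes, for both doses on day 6 and day 28. Filled symbols passed an adjusted p of 0.05 in limma and open ones did not. On day 6 the high dose is filled for all genes but Ctla4 and the low dose for Icos alone, and on day 28 every symbol is open.

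On day 28 none of the 9 genes was called in high dose against air, low dose against air, or high against low dose (limma, 0 at an unadjusted p under 0.05 as well), in comparisons in which 0.185%, 0.0109% and 0.141% of all genes were called. Icos was at -1.19, -1.10, -1.09, -0.96 and -0.57 in high dose rats, against -1.39, -1.24, -1.23, -1.07 and -0.87 in air rats. These ranges overlapped, and its log2 fold change was 0.18, with a 95% confidence interval of -0.15 to 0.51. The CD3 chains were at log2 fold changes of -0.17 (Cd3d), -0.37 (Cd3e) and -0.09 (Cd3g) at the high dose, and that of Cd3e had an interval of -0.79 to 0.06. Cd3e itself was at -1.92, -1.32, -1.15, -1.13 and -1.10 in high dose rats of day 28, against -1.44, -1.19, -1.02, -0.63 and -0.50 in air rats. Cd8a was at 0.50, 0.80, 1.40, 1.73 and 2.03 in high dose rats of day 28, against 0.89, 1.02, 1.24, 1.27 and 1.33 in air rats. In that gene the range of the air rats lay wholly inside that of the high dose rats.

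Across the 6 groups, high dose rats of day 6 had the highest mean of all 9 genes. Low dose rats of day 6 came second in 8 of them, and in Cd3e the air rats of day 28 did (-0.96, against -1.12 in low dose rats of day 6). For Ctla4 this order is no separate support, because the gene passed the filter only through exposed rats. Foxp3 averaged 0.16 ± 0.11 in air rats, 0.45 ± 0.18 in low dose rats and 0.64 ± 0.32 in high dose rats of day 6 (SD, n = 5 each), and its day 28 means lay between 0.19 and 0.27. The means of day 28 differed in no call for any gene.

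Between the days, 8 of the 9 genes were called lower in high dose rats of day 28 than in those of day 6, where 33.6% of all genes were called and 20% were lower. Ctla4 was not called (-0.12, adjusted p = 0.282), while its second probe, below the filter, was (-0.33, adjusted p = 0.000226). The call of Foxp3 (-0.37, adjusted p = 0.0183) was lost without high dose rat 77 of day 6 (-0.27, adjusted p = 0.0873), in a fit of the compared groups alone (adjusted p = 0.0787) and with processed signals (-1.05, adjusted p = 0.0511). Icos was 0.316 times (-1.66, adjusted p = 4.88e-09), Cd3g 0.399 times (-1.33, adjusted p = 1.31e-06) and Cd3d 0.479 times (-1.06, adjusted p = 2.93e-05) its level on day 6. Low dose rats of day 28 were lower in Icos (-0.83, adjusted p = 0.000878) and Cd3g (-0.77, adjusted p = 0.00493), where 11.9% of all genes were called and 7.94% were lower. Air rats of day 28 and day 6 differed in no call (2.95% of all genes), but Cd3g had a log2 fold change of -0.49 ± 0.18 (unadjusted p = 0.0103, adjusted p = 0.103) and Cd3e of 0.39 ± 0.21 (adjusted p = 0.243).

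The change of the dose effect itself, high dose minus air on day 28 less the same on day 6, was called lower for 5 genes, where 16.7% of all genes were called and 11.2% were lower. They were Icos (-1.58 ± 0.23, adjusted p = 1.06e-05), Cd2 (-0.67 ± 0.16, adjusted p = 0.0042), Cd3e (-1.08 ± 0.29, adjusted p = 0.0106), Cd3g (-0.83 ± 0.25, adjusted p = 0.0216) and Cd3d (-0.81 ± 0.25, adjusted p = 0.0246). Cd3d was not called without air rat 5 of day 6 (-0.74, adjusted p = 0.0537) or high dose rat 82 of day 28 (-0.69, adjusted p = 0.0519), and Cd3g not without that air rat (-0.74, adjusted p = 0.05). With median centring neither Cd3d (-0.73, adjusted p = 0.229) nor Cd3g (-0.75, adjusted p = 0.212) was called. From Cy5 alone Cd3d was not called either (-0.69, adjusted p = 0.0774). Cd4, Cd8a, Foxp3 and Ctla4 had changes of -0.29, -0.57, -0.40 and -0.12 that were not called (adjusted p = 0.11 to 0.522). Cd4 was called with the slide as a block (-0.38, adjusted p = 0.044) and without high dose rat 82 of day 28 (-0.40, adjusted p = 0.0198). Foxp3 was called from Cy5 alone (-0.53, adjusted p = 0.0261) and without high dose rat 76 of day 6 (-0.51, adjusted p = 0.0225), and the second probe of Ctla4 was called as well (-0.32, adjusted p = 0.0162). For the low dose no gene was called (limma, 1.95% of all genes), and Icos, the 1 gene with an unadjusted p under 0.05, had -0.75 ± 0.23 (adjusted p = 0.101).

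Rats of one group varied together in some of these genes. After group means were taken off, Cd3d and Cd3g had a Pearson r of 0.89 over the 30 rats (Spearman rho 0.89, both with a permutation p of 1e-05, the smallest that 100000 permutations within groups can give, and 3e-05 adjusted over 3 pairs). Without the 2 rats farthest from the median in Cd3d, r was 0.86. Cd3d and Cd3e had r = 0.59 (rho 0.54, permutation p = 0.00136 and 0.00381, adjusted 0.00204 and 0.00571; 0.56 without the same 2 rats), and Cd3e and Cd3g r = 0.33 (rho 0.29, permutation p = 0.0943 and 0.136, adjusted 0.0943 and 0.136; 0.20 without the 2 rats farthest from the median in Cd3e). Cd3d and Cd3g are each printed as 10 spots on the array, with a median SD between spots of 0.07 and 0.06 against 0.25 and 0.32 between rats, whereas Cd3e has 2 spots. Over all 36 pairs of the 9 genes the within-group r ran from -0.50 (Cd3e and Cd4) to 0.89, with a median of 0.25.

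Each gene was also set against the mean of other lists in the same way, 27 relations in all, with p-values adjusted over them. The 2 farthest rats were here those farthest from the median of the list mean, taken for each list separately. The mean of 22 T cell receptor signalling genes followed Cd3d (r = 0.80, rho = 0.85, permutation p = 3e-05 and 2e-05, adjusted 0.00081 and 0.00054; r = 0.81 without the 2 farthest rats). With Cd4 it gave r = -0.17 (rho = -0.16, permutation p = 0.477 and 0.441, adjusted 0.56 and 0.496; r = -0.05 without them). Cd4 and the macrophage and monocyte genes had r = 0.28 (rho = 0.30, permutation p = 0.172 and 0.149, adjusted 0.29 and 0.237). Without the 2 farthest rats that r was 0.38. Cd8a followed the NK and cytotoxic genes (r = 0.80, rho = 0.76, permutation p = 9e-05 and 8e-05, adjusted 0.00122 and 0.00072; r = 0.73 without them). It also followed the macrophage and monocyte genes (r = 0.63, rho = 0.77, permutation p = 0.0004 and 4e-05, adjusted 0.0036 and 0.00054; r = 0.61 without them) and the receptor signalling genes (r = 0.58, rho = 0.58, permutation p = 0.00624 and 0.0056, adjusted 0.0241 and 0.0216; r = 0.49 without them). Foxp3 followed the macrophage and monocyte genes (r = 0.72, rho = 0.61, permutation p = 0.00086 and 0.0025, adjusted 0.00464 and 0.0112; r = 0.53 without them), and high dose rat 76 of day 6, lowest in Foxp3, was also the lowest of its group in those genes. With the receptor signalling genes Foxp3 had r = 0.44 (rho = 0.31, permutation p = 0.0592 and 0.145, adjusted 0.145 and 0.237), and r = 0.35 without the 2 farthest rats. Other lists were not tested in this way. Among them, Cd8a had a within-group r of 0.70 with antigen presentation and dendritic cell genes and 0.53 with lung tissue genes. It was -0.17 with B and plasma cell genes and -0.66 with mitosis genes. Foxp3 had 0.64 with antigen presentation and dendritic cell genes, 0.63 with T helper genes and 0.60 with ligands on presenting cells. With regulatory T cell genes it had 0.26, and with B and plasma cell genes -0.07. All rats share the reference RNA and the array design, and slide, depth or tissue makeup was not taken out. Permutations for these lists and for the CD3 pairs were within groups and did not keep to the slide. Rats 77, 50 and 56, all on slide 4, were the highest of their groups in Cd8a and in the NK and cytotoxic genes. In the other groups different rats were the highest of each. Among air rats of day 6 they were rat 3 (Cd8a, slide 4) and rat 2 (NK and cytotoxic genes, slide 2). Among high dose rats of day 28 they were rat 83 (Cd8a, slide 3) and rat 80 (NK and cytotoxic genes, slide 4). Among air rats of day 28 they were rat 10 (Cd8a) and rat 7 (NK and cytotoxic genes), both on slide 4. The part of the slide in the r of Cd8a with these genes was not tested.

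**Figure D3:**
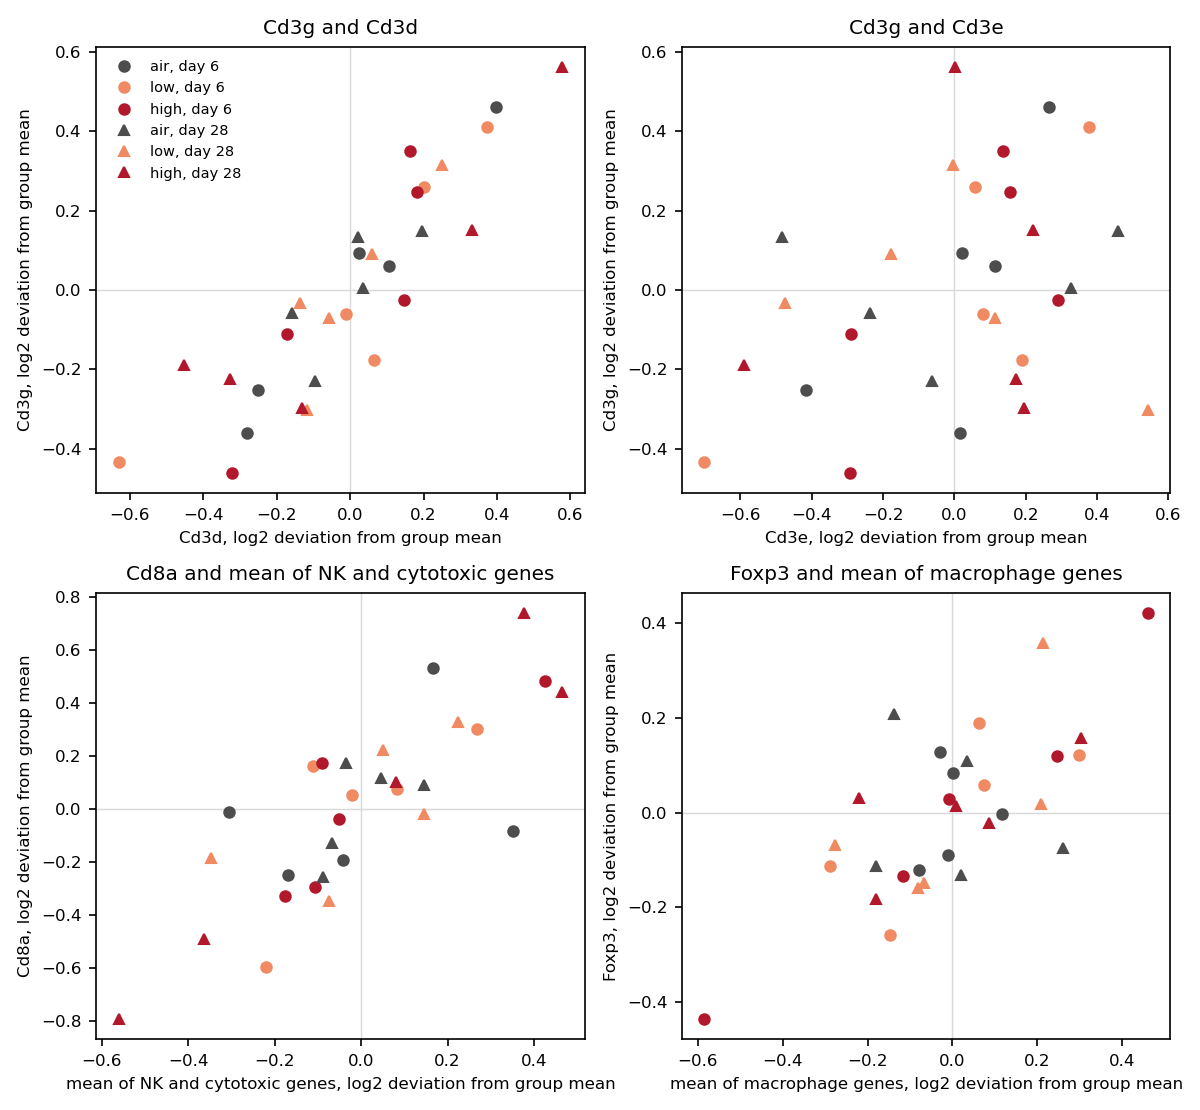
Deviation of each rat from its group mean on the log2 scale, for Cd3g against Cd3d and against Cd3e (top) and for Cd8a against the mean of NK and cytotoxic genes and Foxp3 against the mean of macrophage and monocyte genes (bottom). Circles are day 6, triangles day 28, colours the dose, 30 rats in each panel. Points follow a line for Cd3d and Cd3g (r = 0.89) and scatter for Cd3e and Cd3g (r = 0.33).

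By Pearson r of log2 ratios over all 30 rats, groups included, the genes most like Cd3e were Cd6, a T cell surface receptor (0.84, and 0.83 within groups), Cdca7l (0.82), Lat, the adaptor that links the T cell receptor to its signalling (0.82), Phgdh (0.79) and Slc10a7 (0.78). Most like Icos were Gpr65, a proton-sensing receptor (0.967), Ccl1, a chemokine (0.966), Tnfrsf9, the costimulatory receptor 4-1BB (0.964), Tgfbi (0.963) and Batf, a transcription factor of activated lymphocytes (0.960), with 0.59 to 0.76 within groups. Cd4 was most like C1qc, a complement chain made by macrophages (0.87), Scnn1b, a sodium channel subunit (0.86), Tmem176a (0.86), Mrpl54 (0.86) and Slc44a2 (0.85). Within groups these genes had 0.64 (C1qc) to 0.72 (Scnn1b) with Cd4. Foxp3 was most like Cd300le (0.86), Tifab (0.85), Pla2g10 (0.84), Folr2, a folate receptor of macrophages (0.84, and 0.82 within groups), and Htr2b (0.83). These values describe likeness and carry no test.

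Other genes of the pathway also changed at the high dose on day 6, where 21.1% of all genes were called higher and 15.4% lower. Of 22 T cell receptor signalling genes 11 rose and 0 fell, with a median log2 fold change of 0.30. Among them were the adaptor Lcp2 (1.02, adjusted p = 2.34e-06) and the exchange factor Vav1 (0.96, adjusted p = 1.4e-05), which myeloid cells also use, Cd5 (0.57, adjusted p = 0.000388), the kinase Zap70 (0.57, adjusted p = 0.00409) and the kinase Lck (0.34, adjusted p = 0.00878). Cd247, the zeta chain of the receptor, was not called (0.33 ± 0.20, adjusted p = 0.198). None of the 22 was called at the low dose (limma, 5 at an unadjusted p under 0.05).

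Of 12 other costimulatory and inhibitory receptors, 6 rose and 0 fell (median 0.34). Tnfrsf4, the receptor OX40 of activated T cells, was 4.35-fold higher (2.12, adjusted p = 1.45e-11), Tnfrsf9 was 4.01-fold higher (2.00, adjusted p = 1.96e-12) and the inhibitory receptor Havcr2 was 1.5-fold higher (0.58, adjusted p = 4.41e-08). Their ligands belong to a list in which 9 of 13 rose and 0 fell (median 0.48). Tnfsf9, the ligand of 4-1BB, was 4.48-fold higher (2.16, adjusted p = 3.22e-12), Tnfsf4, the ligand of OX40, was 1.42-fold higher (0.50, adjusted p = 2.23e-06), and Cd86, a ligand of CD28 and CTLA-4, was 2.19-fold higher (1.13, adjusted p = 4.68e-06). Cd86 was also higher at the low dose (0.63, adjusted p = 0.0185). Cd80 was on the array but did not pass the filter, and the ligand of ICOS was not matched to a probe.

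T cell state lists were read in the same way, where 21.1% of all genes were called higher and 15.4% lower. T helper genes gave 3 of 13 higher and 0 lower (median 0.12), near that share of higher genes. The 3 were Batf (2.20, adjusted p = 6.16e-13), the chemokine receptor Cxcr3 (1.01, adjusted p = 1.64e-05) and the chemokine receptor Cxcr6 (0.55, adjusted p = 0.000825). Naive and resting T cell genes gave 3 of 12 higher and 5 lower, with S1pr1, an exit receptor that endothelium also carries, 0.397 times the air level (-1.33, adjusted p = 5.67e-07). Lef1, a transcription factor of resting T cells, fell by 0.48 on the log2 scale (adjusted p = 0.0149), and Ccr7, a lymph node homing receptor, rose (0.49, adjusted p = 0.00181). Pecam1, an endothelial gene of the lung tissue list, was lower as well (-0.42, adjusted p = 0.03).

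Genes of other cell types were measured beside these. Macrophage genes with the smallest p were Mmp12, the macrophage elastase (16.5-fold higher, adjusted p = 2.77e-16), Siglec1, a sialic acid receptor (12.7-fold, adjusted p = 3.66e-10), and Fcgr1a, an antibody receptor (3.77-fold, adjusted p = 1.37e-10). In the NK and cytotoxic list they were Cst7, a cystatin that myeloid cells also make (3.15-fold higher, adjusted p = 4.82e-09), the receptor Klrk1 (1.99-fold, adjusted p = 6.02e-05) and the protease Ctsw (1.96-fold, adjusted p = 0.000183). Antigen presentation and dendritic cell genes gave 11 of 14 higher and 0 lower (median 0.63), led by the chemokine Ccl22 (6.93-fold, adjusted p = 3.6e-14) and the class II chaperone chains RT1-DMa (3.19-fold, adjusted p = 2.68e-11) and RT1-DMb (2.35-fold, adjusted p = 1.2e-08).

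B and plasma cell genes gave 3 of 10 higher and 0 lower (median -0.05), namely Blnk, a B cell adaptor (2.37-fold, adjusted p = 1.67e-08), Tnfrsf17 (1.68-fold, adjusted p = 0.0269) and Mzb1 (1.6-fold, adjusted p = 0.0019). Beside these lists, 21.1% of all genes were called higher and 15.4% lower. Innate lymphoid, mast cell and eosinophil genes gave 0 of 13 higher and 2 lower (median -0.20), the 2 being Gata2 (0.366 times the air level, adjusted p = 1.42e-05) and Kit (0.6 times, adjusted p = 0.00289), and Ccr3 was not called (0.27, adjusted p = 0.0891). Mitosis genes gave 20 of 21 higher and 0 lower (median 1.63), with the kinase Cdk1 6-fold (adjusted p = 1.27e-14), Cdca3 5.75-fold (adjusted p = 2.08e-12) and Bub1 4.56-fold higher (adjusted p = 2.39e-11). Of lung tissue genes 0 of 10 were higher and 1, Pecam1, was lower, while Sftpa1 (0.39, adjusted p = 0.0738) and Cdh5 (-0.42, adjusted p = 0.0932) were not called. No heart muscle gene of 8 was called (limma, 3 at an unadjusted p under 0.05), and Ryr2 (-0.21, adjusted p = 0.0558), Actc1 (-1.26, adjusted p = 0.102) and Cox6a2 (1.86, adjusted p = 0.108) had the smallest p. The part of these cells or of cell division in the values of the 9 genes was not tested.

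**Figure D4:**
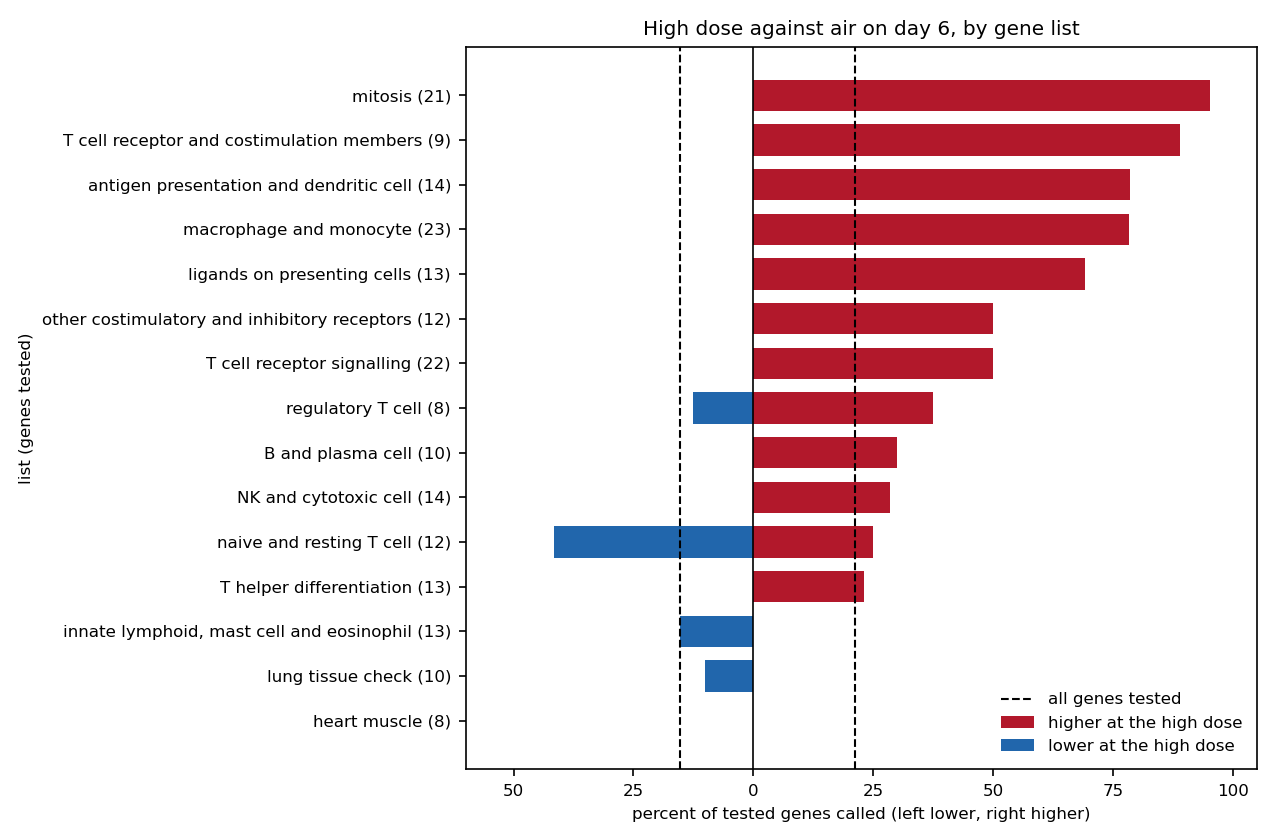
Percent of the tested genes of each list that were called at the high dose against air on day 6 (horizontal axis, right of 0 higher and left of 0 lower), with the number of genes tested in brackets. Dashed lines give the same over all genes tested, 21.1% higher and 15.4% lower. Mitosis genes (20 of 21) and the T cell receptor and costimulation genes (8 of 9) have the longest bars.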

How the data were processed

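Lung RNA of 30 rats was measured on 2-colour Agilent arrays, 1 per rat. Per the file headers, the deposited scanner files hold spot intensity values from Agilent Feature Extraction 11.0.1.1. The authors' deposited table holds 1 log2 ratio per probe; the steps behind it were not given in the sources used here, and it served as an alternative. Over the probes of an array it correlated at 0.998 to 1.000 with loess ratios made without background correction.

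Median spot and local background intensities were corrected with normexp (offset 50), and log2 Cy5 over Cy3 was fitted by loess array by array, leaving out control and flagged spots. Spots of a probe were averaged. A probe was kept if well above background in Cy5 (over a share of 0.5 of its spots) on at least 5 of 30 arrays, which left 20852 of 30367 probes. Accessions were matched to a RefSeq table (GRCr8), which named 18005 probes, and the brightest probe stood for a gene (18420 genes, 11331 with a symbol). The normexp offset shrinks ratios of dim probes such as Ctla4, Foxp3 and Cd2. Means of the 6 groups were fitted with limma 3.58.1 (lmFit, eBayes) in R 4.3.3, and p-values were adjusted over all genes within each of 11 contrasts (Benjamini-Hochberg, 0.05). SE and intervals are from this fit. The 5 rats per group are separate animals and limit the precision. The fit was tested on simulated data with changes added to the high dose of day 6. It called 36 of 67 genes with a log2 change of 0.5, 61 of 67 with 1 and 66 of 66 with 2. Of 173 calls, 10 were false. Changes near 0.5 were thus often missed there. The 4 slides, read from the array barcodes, were tested as a block. Correlations were run in Python with SciPy. The rule for named genes took the 10 members, from each other list the 3 genes of smallest p for high dose against air on day 6, a panel of partner genes, and 5 genes most like Cd3e, Cd4, Icos and Foxp3. The members and lists were chosen with earlier results of these data known. Promoters are from RefSeq. Alternatives varied background correction, normalization, channel, filter, probe, slide, samples and fold.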

Additional observations from a re-analysis of the deposited data

Results flagged for a closer look

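Among 54 groups of 5 values (9 genes in 6 groups), 2 held a rat far from the other 4; chance alone gives about 1 in 20. Cd3e in high dose rat 82 of day 28 was -1.92, with the other 4 between -1.32 and -1.10. The same rat had the highest Cd4 of its group (0.95). Cd8a in low dose rat 47 of day 6 was 1.04, with the other 4 between 1.69 and 1.94.

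For 5 genes the effect of the high dose differed between the days by a test of the difference itself in limma. The change of the effect, day 28 minus day 6, was -1.58 for Icos (adjusted p = 1.06e-05), -1.08 for Cd3e (0.0106), -0.83 for Cd3g (0.0216), -0.81 for Cd3d (0.0246) and -0.67 for Cd2 (0.0042).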

How the results depend on the processing

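At the high dose on day 6 the number of the 9 genes called was within 1.5 times the main count of 8 under each alternative run. That margin includes losses: with median centring Cd3d, Cd3g and Cd8a were not called, while Ctla4 was. Cd4 (1.23-fold) and Foxp3 (1.39-fold) lay under a fold of 1.5. The high against low dose count on day 6 was 1 in place of 2 with median centring and with a fold of at least 1.5 as well. The count for low dose rats, day 28 against day 6, was 4 with the processed signals of the scanner software and 1 with median centring, in place of 2, and the change of the high dose effect gave 3 with median centring in place of 5. For the change of the low dose effect, 1 gene, Icos, was called in place of 0 without background correction, with Cy5 alone, and in a fit of the compared groups only. Cd8a in high dose rats, day 28 against day 6, turned to 0.12 (adjusted p = 0.618) with processed signals, and the cause was not tested. At the high dose on day 6 Cd4 (0.79, adjusted p = 0.0513) and Cd8a (0.41, adjusted p = 0.057) were not called with processed signals, nor Cd8a (0.67, adjusted p = 0.0863) with median centring, and Ctla4 was called without background correction (0.26), after median centring (0.28), from Cy5 alone (0.36) and in the authors' deposited table (0.23). Leaving out each rat in turn gave 7 to 9 genes for high dose against air on day 6, 1 to 2 for low dose against air (2 without air rat 4), 2 to 2 for high against low dose, 7 to 8 for high dose rats between days, 2 to 4 for low dose rats between days (4 without low dose rat 52 of day 28), 3 to 6 for the change of the high dose effect (3 without air rat 5 of day 6), and 0 to 0 elsewhere. No paired analysis was possible because the groups share no rat numbers. Centring also moves the whole table: of all genes called at the high dose on day 6, 57.71% were higher, against 43.77% after median centring, 49.15% from processed signals, 46.11% in the authors' table and 45.72% from Cy5 alone. After median centring the median log2 fold change of all genes was 0.15 for low dose against air and -0.19 for high against low dose on day 28, against -0.01 and -0.0015 after loess. It was -0.16 for day 28 against day 6 in air rats and 0.18 for the change of the low dose effect, against 0.01 and -0.02 after loess. Signal over background limits Ctla4 and Cd28, and also Foxp3 (well above background in 1 of 5 air rats of day 6 and in 3 of 5 high dose, 2 of 5 low dose and 2 of 5 air rats of day 28) and Cd2 (3 of 5 high dose, 4 of 5 low dose and 1 of 5 air rats of day 28).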
